A study of Homo sapiens with 84 samples.

Results

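The 58 genes described here act in the G2 phase and in mitosis. They were taken by name from the deposited table of 57964 genes, and all 58 were found there. Each gene's count was scaled to a common library total (CPM) in every library, and the mean log2 CPM over the 58 genes gave a score per library. The libraries came from 2 established lung cancer cell lines, NCI-H1373 and NCI-H647, labelled non-small cell lung cancer. Cells were exposed for 6 or 24 h to RBN-2397 at 10, 30 or 300 nM, to RBN012337 at 3, 10 or 100 nM, or to the vehicle DMSO. Both compounds inhibit PARP7, a mono-ADP-ribosyltransferase, and per the design text each compound's doses lie near its IC25, IC50 and IC90. The sample labels spell RBN-2397 as RBN012397. Line, time and treatment gave 28 groups of 3 libraries, 84 in all. Vehicle libraries were made for each line at each time, so all 6 treated groups of a line and time share 3 DMSO libraries. The design text speaks of experiments in triplicate without saying whether they came from separate days or passages, so p-values measure the spread between libraries, which may be technical.

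As background, cells enter mitosis when CDK1 bound to cyclin B is switched on by CDC25 phosphatases. Polo-like and Aurora kinases, kinesin motors and the kinetochore then align the chromosomes on the spindle. The spindle checkpoint holds the anaphase-promoting complex, through CDC20, until every kinetochore is attached. Transcripts of these genes build up late in the cell cycle, and many are controlled through a promoter element called the cell cycle genes homology region (CHR) and through nearby CCAAT boxes. The CHR is bound by the MuvB complex with its partners B-MYB and FOXM1, and CCAAT boxes are bound by NF-Y. In a culture of dividing tumour cells, the level of these transcripts reflects both how many cells are near mitosis and how much each such cell makes. In bulk libraries those contributions cannot be told apart.

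The promoters of a few members are printed because the members often share the letters of these elements, which the choice of genes did not use. Windows of 300 bases, from 250 before to 50 after each RefSeq start site on GRCh38.p14, were available for 48 of the 58 genes. The letters searched on both strands were TTTGAA or TTCGAA for the CHR, and CCAAT for the other element, and the matches can share a letter at their ends. At least 1 window held CHR letters in 36 of the 48 genes (75.0%), against 19.5% of all 27305 genes with a window. CCAAT was found in 39 of the 48 genes (81.2%), against 39.7% of all genes, and both in 1 window in 31 (64.6%), against 7.8%. A match describes the letters in the window and is not evidence of binding. In the lines that follow, capitals mark CHR letters and CCAAT on either strand (TTCAAA and ATTGG are the reverse matches). ARL6IP1, which fell in both lines at both times, has CCAAT but no CHR letters. BUB1, KIF18A and NUSAP1 fell in NCI-H1373 at 6 or 24 h. In the fit reported below, with all libraries and no replicate block, PLK1 was not called in the pooled response of either line.

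ARL6IP1 (chr16:18801500-18801799, minus strand): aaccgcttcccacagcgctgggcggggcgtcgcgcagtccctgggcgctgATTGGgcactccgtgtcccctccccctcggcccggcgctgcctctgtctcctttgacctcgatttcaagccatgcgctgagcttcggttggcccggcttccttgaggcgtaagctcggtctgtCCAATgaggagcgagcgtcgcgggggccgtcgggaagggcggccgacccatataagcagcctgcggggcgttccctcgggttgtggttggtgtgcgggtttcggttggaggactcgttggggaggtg

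BUB1 (chr2:110678014-110678313, minus strand): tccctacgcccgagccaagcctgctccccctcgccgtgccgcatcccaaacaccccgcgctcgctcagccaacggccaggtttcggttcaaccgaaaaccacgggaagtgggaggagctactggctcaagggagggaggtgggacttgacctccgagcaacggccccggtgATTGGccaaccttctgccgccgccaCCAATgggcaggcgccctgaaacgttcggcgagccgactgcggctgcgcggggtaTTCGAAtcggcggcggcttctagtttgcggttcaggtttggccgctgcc

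KIF18A (chr11:28108107-28108406, minus strand): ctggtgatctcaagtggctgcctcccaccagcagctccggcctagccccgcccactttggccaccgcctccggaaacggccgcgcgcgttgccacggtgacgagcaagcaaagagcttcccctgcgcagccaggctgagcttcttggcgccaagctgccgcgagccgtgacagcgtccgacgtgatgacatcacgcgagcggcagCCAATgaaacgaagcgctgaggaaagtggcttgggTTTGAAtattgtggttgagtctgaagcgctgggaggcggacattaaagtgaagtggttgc

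NUSAP1 (chr15:41332631-41332930, plus strand): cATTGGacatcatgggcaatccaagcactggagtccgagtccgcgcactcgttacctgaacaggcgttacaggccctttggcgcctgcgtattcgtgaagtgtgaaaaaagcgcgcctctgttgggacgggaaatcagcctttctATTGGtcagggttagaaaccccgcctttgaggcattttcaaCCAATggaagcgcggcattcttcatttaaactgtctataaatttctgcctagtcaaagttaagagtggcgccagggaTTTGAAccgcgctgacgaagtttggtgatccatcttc

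PLK1 (chr16:23678639-23678938, plus strand): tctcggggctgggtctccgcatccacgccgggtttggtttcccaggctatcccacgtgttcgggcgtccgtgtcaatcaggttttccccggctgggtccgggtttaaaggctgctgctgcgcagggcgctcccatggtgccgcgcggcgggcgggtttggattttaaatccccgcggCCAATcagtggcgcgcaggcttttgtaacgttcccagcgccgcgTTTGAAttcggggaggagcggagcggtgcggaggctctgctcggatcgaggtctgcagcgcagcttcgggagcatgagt

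In the KIF18A window the CHR letters begin at -10 and CCAAT at -45, and in the PLK1 window at -29 and -73, counted from the start site. Among the members with CHR letters, 7 of 36 were called lower in NCI-H1373 at 6 h, against 0.592% of all genes, with a median log2 difference of -0.34. Among the 12 members with windows but no such letters, 2 were called lower and the median was -0.52. Both medians were negative at that time, and the difference between them was not tested.

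Total counts per library ran from 630654 to 6938453, and the 58 members together received 7248 to 58458 counts in a library. The shallowest library was NCI-H1373 24 h DMSO replicate 3. Chi-square over its degrees of freedom was 3.9 to 44.1 between the counts of the 84 replicate pairs, so all were kept as separate libraries. All 58 members passed the filter on low counts in both lines. NCI-H1373 had the epithelial markers EPCAM (median 376 CPM over its 42 libraries) and CDH1 (15.7 CPM). NCI-H647 had the keratins KRT7 (607 CPM), KRT8 (299 CPM) and KRT18 (440 CPM) but little KRT19 (15.1 CPM, against 1060 CPM in NCI-H1373). It had almost no EPCAM (2.86 CPM), CDH1 (0.23 CPM), CLDN4 (0.57 CPM) or CLDN7 (0.53 CPM). Markers of blood, endothelial and stromal cells (12 genes) summed to 6.71 to 28 CPM across groups. CD3E was at 0 in all libraries, while CD68 and COL1A1 were above 0 in all libraries of both lines. Of 10 interferon-stimulated genes, 10 were called higher in NCI-H1373 at 24 h (100% against 6.13% of all genes) and 8 in NCI-H647 at 24 h (80% against 2.26%).

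The first question was how the 58 genes moved in NCI-H1373 after 6 h of PARP7 inhibition. The mean of the 6 treated groups was compared with DMSO in a fit of all 42 libraries of the line, and a gene was called when its Benjamini-Hochberg adjusted p over 12832 genes was below 0.05 (edgeR quasi-likelihood F test). By this rule 10 members fell and 0 rose, 17.2% of the 58 against 0.592% of all genes called lower and 0.569% called higher. The difference was negative for 50 of 58 members, with a median of -0.35 on the log2 scale, against 0.01 for all genes. At an unadjusted p below 0.05 there were 29 of the 58 members, against 14.8% of all genes. The members called lower covered DNA topology (TOP2A, HMGB2), the spindle (NUSAP1, HMMR, CKAP2), the kinetochore (SPC25), the checkpoint (BUB1), CDK1 control (CDC25C, CKS2) and the endoplasmic reticulum (ARL6IP1).

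The largest difference among the members was that of ARL6IP1, which encodes a membrane protein that shapes the tubules of the endoplasmic reticulum. Its lowest, median and highest levels in the 18 treated libraries were 253, 331 and 514 CPM, against 541, 1150 and 527 CPM in DMSO replicates 1, 2 and 3. Every treated library was below every DMSO library, and DMSO replicate 2 stood at more than the level of both other DMSO libraries together. The log2 difference was -1.13 ± 0.16 (SE), or 0.458 of the DMSO level (adjusted p = 0.000256, edgeR).

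Among the regulators of CDK1, CDC25C, the phosphatase that removes its inhibitory phosphates, had 11.9, 19.5 and 55.2 CPM (lowest, median, highest) in treated libraries, against 54.5, 60.3 and 35.4 CPM in DMSO. It fell by 1.11 ± 0.27 on the log2 scale (edgeR adjusted p = 0.0323), with 15 of 18 treated libraries below every DMSO library. CKS2, a small CDK-binding subunit, had 606, 855 and 1620 CPM in treated libraries and 1460, 2720 and 1220 CPM in DMSO, and fell by 0.99 ± 0.24 (adjusted p = 0.0323). The groups overlapped for both genes, and replicate 2 was again the highest DMSO library. CDK1 itself, the mitotic kinase, had 64.6, 98.3 and 139 CPM in treated libraries, against 119, 219 and 149 CPM in DMSO. Its difference of -0.68 ± 0.19 did not pass without a replicate block (edgeR adjusted p = 0.0582). CCNB1, cyclin B1, had a difference of -0.26 ± 0.13 (adjusted p = 0.322). CDC25B, the sister phosphatase, lay on the other side, with 16, 53.4 and 76.1 CPM in treated libraries and 34, 9.97 and 31.7 CPM in DMSO (log2 difference 0.89 ± 0.30, adjusted p = 0.136).

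Of the mitotic kinases and checkpoint genes, only BUB1 passed the test in the fit without a replicate block. With replicate number as a block, AURKA and NEK2 were also called lower, and DESeq2 without the block also called NEK2. BUB1, a kinase of the spindle checkpoint at kinetochores, had 18.5, 33.1 and 43.2 CPM in treated libraries, against 44.9, 67.2 and 59.7 CPM in DMSO, without overlap. It fell by 0.79 ± 0.19 on the log2 scale (edgeR adjusted p = 0.0323). NEK2, a centrosome kinase, also separated the groups, at 18.4 to 39.1 CPM in treated libraries and 40.7 to 59.3 CPM in DMSO, but its difference of -0.77 ± 0.22 had an adjusted p of 0.0792 (edgeR). PLK1 and AURKA, which drive spindle formation, had differences of 0.14 ± 0.20 and -0.44 ± 0.18, and neither passed without the block. CDC20, the activator of the anaphase-promoting complex, stood at 0.01 ± 0.23, and FOXM1, the transcription factor of late cell cycle genes, at 0.02 ± 0.17. Both values changed sign under other settings.

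At the kinetochore, SPC25, a subunit of the NDC80 complex, had 14.4, 18 and 31.3 CPM in treated libraries, against 20.9, 53.5 and 36 CPM in DMSO. It fell by 0.96 ± 0.22 (edgeR adjusted p = 0.0246), although DMSO replicate 1 lay within the treated range. Its partner SPC24 did not pass, at 11.2 to 22.1 CPM in treated libraries and 15.9 to 19.9 CPM in DMSO (log2 difference -0.06 ± 0.20). No kinesin passed the edgeR test in the fit without a replicate block. With replicate number as a block, KIF11, KIF18A, KIF20A and KIF2C were called lower, and DESeq2 without the block called KIF18A. All 9 kinesins had negative differences, from -0.85 to -0.02. Every treated library lay below every DMSO library for KIF18A and KIF2C.

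On the spindle, NUSAP1, which bundles microtubules near chromatin, had 146, 187 and 341 CPM in treated libraries, against 299, 597 and 254 CPM in DMSO. It fell by 0.92 ± 0.20 (edgeR adjusted p = 0.0178), with 15 of 18 treated libraries below every DMSO library. CKAP2, another spindle protein, had 63.2, 117 and 152 CPM in treated libraries and 110, 282 and 246 CPM in DMSO, and fell by 0.87 ± 0.21 (adjusted p = 0.0286). HMMR, a microtubule-bound protein of the spindle poles, fell by 0.73 ± 0.18 (adjusted p = 0.031). Of the genes for chromosome structure, HMGB2, a DNA-bending protein, had 726, 915 and 1450 CPM in treated libraries, against 1540, 2100 and 1630 CPM in DMSO, without overlap. It fell by 0.83 ± 0.17 (edgeR adjusted p = 0.015). TOP2A, which untangles sister chromatids, had 265, 365 and 532 CPM in treated libraries and 459, 779 and 594 CPM in DMSO, and fell by 0.74 ± 0.17 (adjusted p = 0.0238). MKI67, the Ki-67 protein that coats mitotic chromosomes, did not pass (-0.12 ± 0.17).

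**Figure D1:**
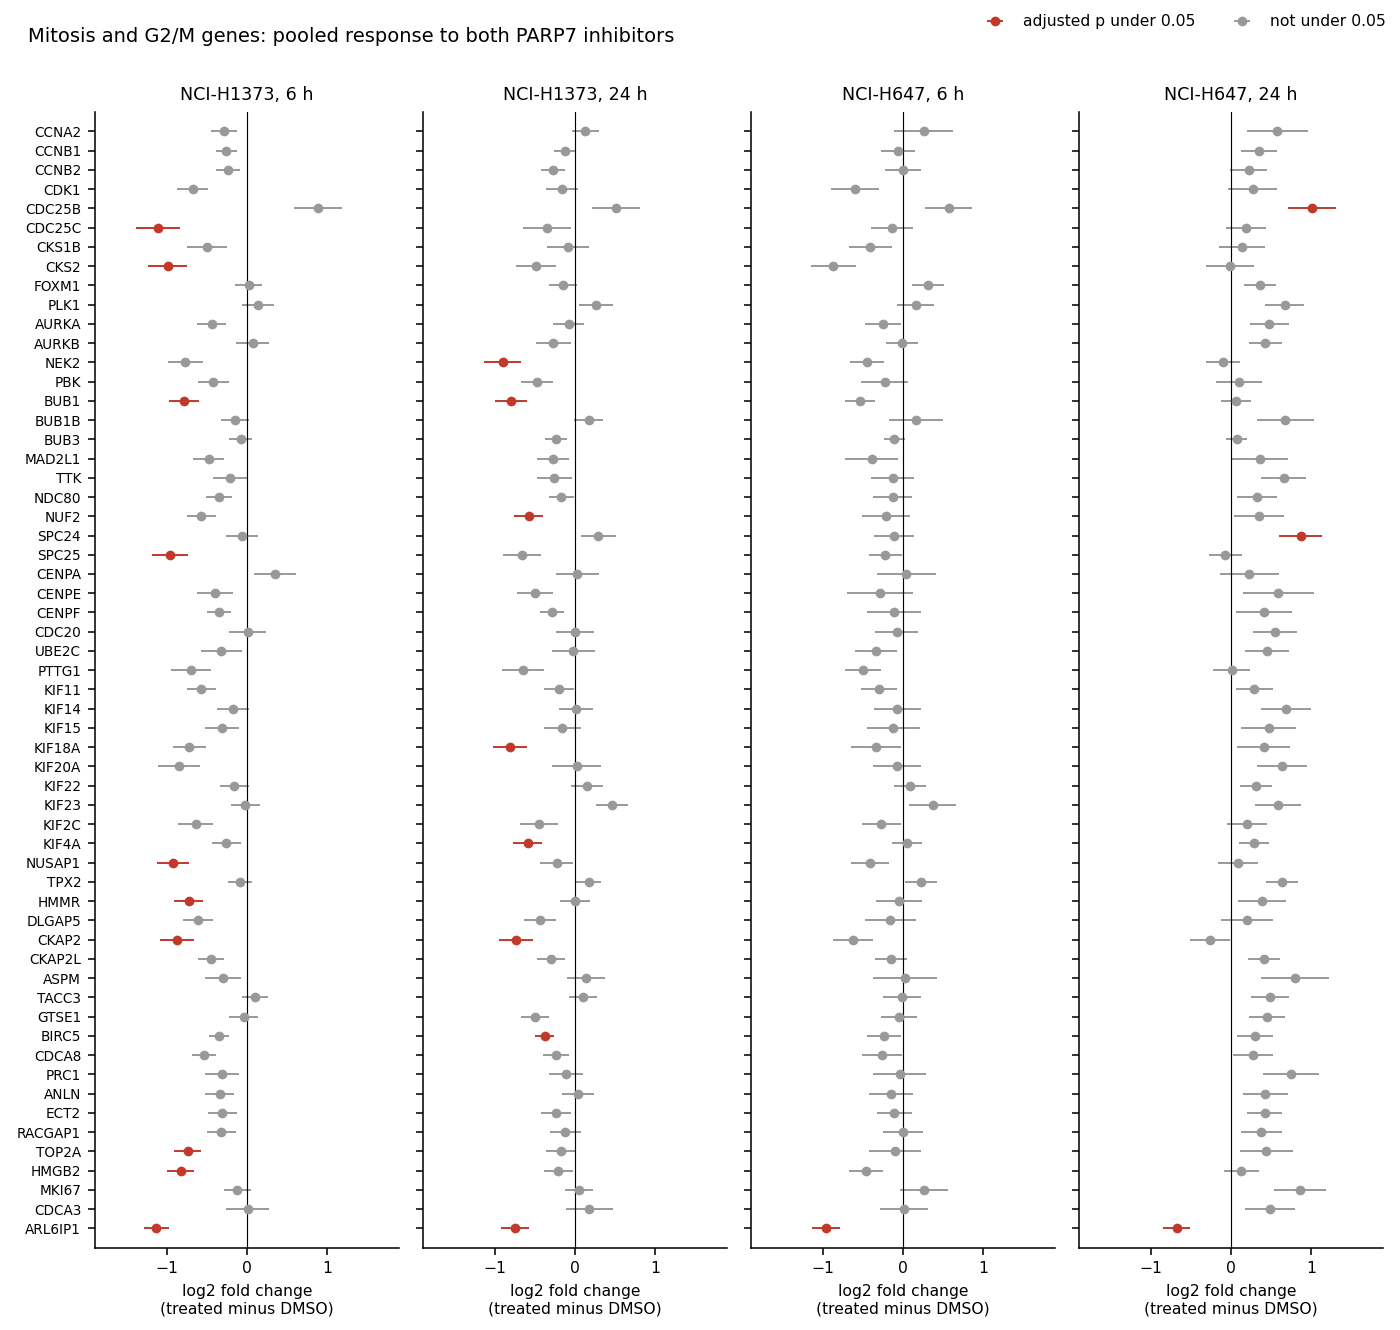
Pooled log2 fold change of the 58 members (x axis, mean of 6 treated groups minus DMSO, bars 1 standard error) in each line and time, with members ordered by role down the page and red points for an adjusted p below 0.05. NCI-H1373 at 6 h holds 10 red points, all below 0, and NCI-H647 at 24 h has 53 of 58 points above 0.

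For 6 members (NEK2, BUB1, KIF18A, KIF2C, HMGB2 and ARL6IP1), all 18 treated libraries lay below all 3 DMSO libraries, 10.3% of the list against 0.242% of all genes. DMSO replicate 2 was the highest DMSO library for 30 of the 58 members. Without it, the edgeR fit called 0 members, with 19 at an unadjusted p below 0.05 (against 5.51% of all genes), and 1 gene in all. The direction was still negative for 53 of 58 and the median was -0.31. Without DMSO replicate 1 or 3 the fit called 11 or 9 members, and without RBN-2397 30 nM replicate 2 it called 17 lower and 1 higher. The share of counts from mitochondrially encoded genes was 5.76 to 7.27% in treated libraries and 6.06 to 6.97% in DMSO. The differences of the 13 mitochondrially encoded transcripts were all negative (median -0.19, 0 called by edgeR, 1 at an unadjusted p below 0.05), and their part in the result was not tested.

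After 24 h in NCI-H1373 fewer of the members were called. The edgeR test called 8 members lower and 0 higher, 13.8% of the list against 6.02% of all genes called lower at that time, and 0% against 6.13% called higher. In either direction 13.8% of the members were called, against 12.1% of all genes, which are similar shares. The median difference was -0.19, against -0.01 for all genes, and 41 of 58 members were negative. At an unadjusted p below 0.05 there were 15 of 58 members, a share near the 26% of all genes. ARL6IP1, BUB1 and CKAP2 were called at both times, with separate DMSO libraries. Without a replicate block, NEK2, KIF18A, KIF4A, NUF2 and BIRC5 were called only at 24 h. No difference between the times passed the test for them, as given further on.

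ARL6IP1 had 264, 351 and 468 CPM in treated libraries at 24 h, against 557, 483 and 729 CPM in DMSO, without overlap. It fell by 0.75 ± 0.17 on the log2 scale (edgeR adjusted p = 0.00289), to 0.594 of the DMSO level. BUB1 had 21.8, 37.1 and 72.8 CPM in treated libraries, against 84.2, 50.1 and 76.4 CPM in DMSO, and fell by 0.80 ± 0.20 (adjusted p = 0.00635). The groups overlapped for BUB1 because DMSO replicate 2 lay within the treated range. NEK2 had 18.3, 35 and 67 CPM in treated libraries, against 77.2, 59.7 and 52.1 CPM in DMSO, and fell by 0.90 ± 0.23 (adjusted p = 0.00738).

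KIF18A, the kinesin that damps chromosome movements at the metaphase plate, did not overlap between the groups. It had 20.4, 30.1 and 45.4 CPM in treated libraries, against 56.1, 56.7 and 57.3 CPM in DMSO. It fell by 0.81 ± 0.21 (edgeR adjusted p = 0.0105). CKAP2 fell by 0.74 ± 0.21 (adjusted p = 0.0184), with 80.5 to 193 CPM in treated libraries and 131 to 302 CPM in DMSO. KIF4A, a chromosome-bound kinesin of the anaphase spindle, fell by 0.59 ± 0.18 (adjusted p = 0.0218). NUF2, the partner of NDC80, fell by 0.58 ± 0.18 (adjusted p = 0.0296), and BIRC5, the chromosomal passenger survivin, by 0.38 ± 0.12 (adjusted p = 0.0342).

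Several members that fell at 6 h did not pass at 24 h. NUSAP1 had 135, 181 and 258 CPM in treated libraries and 199, 161 and 333 CPM in DMSO (log2 difference -0.23 ± 0.21, edgeR adjusted p = 0.548). TOP2A stood at -0.18 ± 0.18 and HMGB2 at -0.21 ± 0.18. CDK1, CCNB1, AURKA, CDC20, MKI67 and FOXM1 had differences between -0.16 and 0.05, and PLK1 stood at 0.26 ± 0.21. None of these passed. Libraries did not overlap for KIF18A, GTSE1 and ARL6IP1, 5.17% of the list against 0.429% of all genes. Without DMSO replicate 1 the fit called ARL6IP1 alone among the members, and without replicate 2 or 3 it called 9 or 6.

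**Figure D2:**
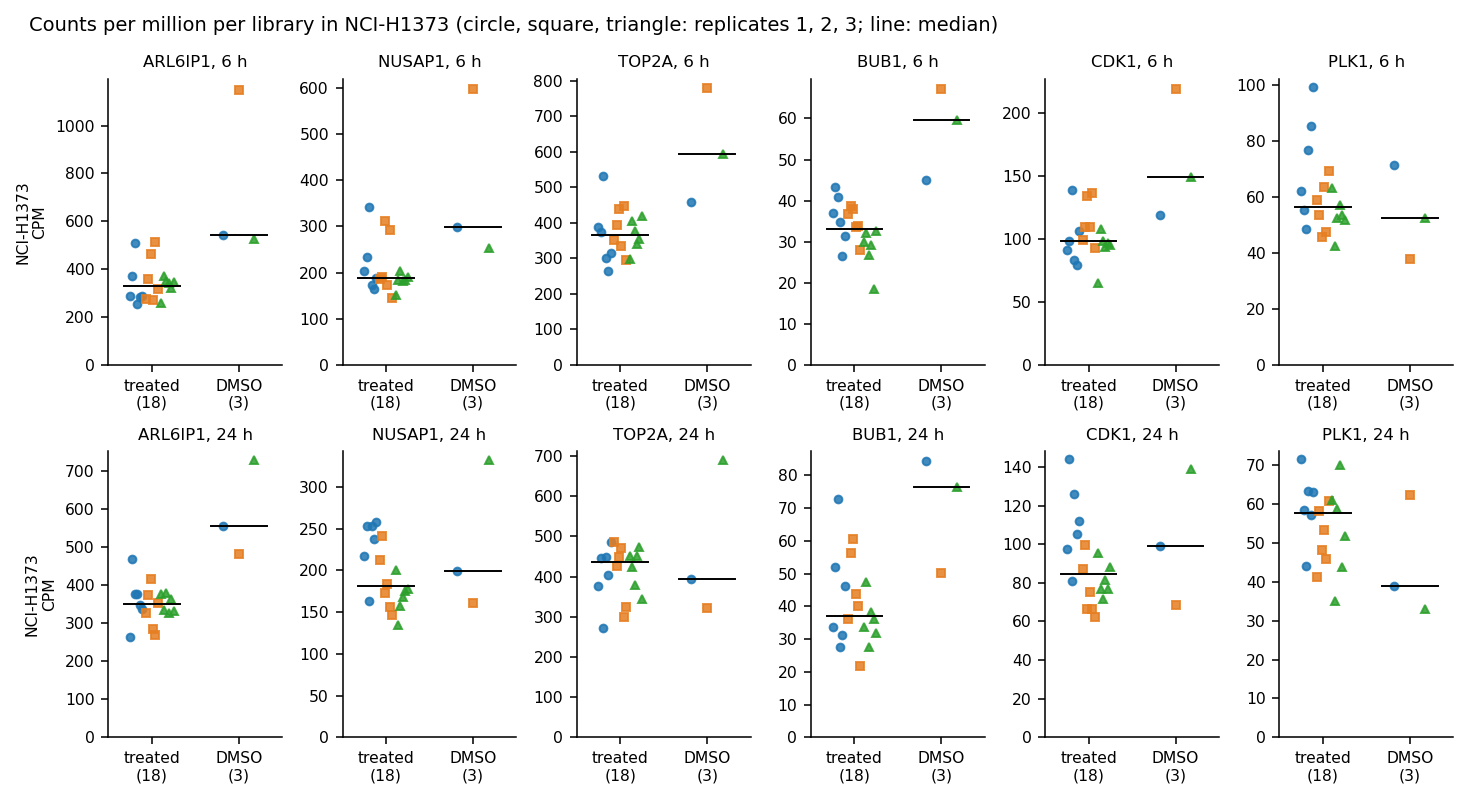
CPM (y axis) of 6 members in each NCI-H1373 library at 6 h (upper row) and 24 h (lower row), with 18 treated libraries left of 3 DMSO libraries, lines at medians, and circles, squares and triangles for replicates 1, 2 and 3. ARL6IP1 is lower in all 18 treated libraries than in any DMSO library at both times, and DMSO replicate 2 stands highest at 6 h for ARL6IP1 (1150 CPM) and NUSAP1 (597 CPM).

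The score of the 58 genes was lower in treated NCI-H1373 cells at 6 h. It averaged 6.40 ± 0.10 (SD, n = 18) in treated NCI-H1373 libraries and 6.77 ± 0.10 (SD, n = 3) in DMSO, a difference of -0.37, with 18 of 18 treated libraries below every DMSO library. Set against the DMSO library of the same number, the treated mean differed by -0.18 in replicate 1, -0.46 in replicate 2 and -0.45 in replicate 3, with 6 of 6 treated libraries below it each time. With plain CPM in place of CPM scaled by TMM, the difference from DMSO was -0.24, and 17 of 18 treated libraries lay below every DMSO library. The place of DMSO replicate 2 at 6 h depended on this scaling. It had the highest DMSO score with TMM (6.86) but the lowest with plain CPM (6.49, against 6.55 and 6.78 in replicates 1 and 3). Replicate 2 of 10 nM RBN-2397 then stood at 6.5, above its own DMSO library. At 24 h the score averaged 6.45 ± 0.15 in treated libraries and 6.63 ± 0.18 in DMSO, a difference of -0.18, with 8 of 18 treated libraries below every DMSO library. With plain CPM the difference at 24 h was -0.23, close to that at 6 h, and 14 of 18 treated libraries lay below every DMSO library. The smaller score difference at 24 h was thus seen with TMM scaling and not with plain CPM. No other scaling was used for the score. In the edgeR fit with RLE, another scaling, 53 members were negative at 6 h and 43 at 24 h.

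The score of NCI-H1373 at 6 h was low at every dose, with no order by dose beyond the spread. From DMSO upwards the score averaged 6.77 ± 0.10, then 6.37 ± 0.05 at 10 nM RBN-2397, 6.37 ± 0.10 at 30 nM and 6.37 ± 0.13 at 300 nM (SD, n = 3 each). For RBN012337 it averaged 6.39 ± 0.12 at 3 nM, 6.47 ± 0.08 at 10 nM and 6.47 ± 0.16 at 100 nM. All 6 groups share the same 3 DMSO libraries, so their differences from DMSO are not independent. The fit called 5 members lower with 300 nM RBN-2397 (8.62% against 0.631% of all genes called lower), 1 with 10 nM (1.72% against 0.0468%) and 0 with 30 nM. At 30 nM 23 members had an unadjusted p below 0.05, against 6.67% of all genes, and DESeq2 called 2. With RBN012337 the fit called 2 members at 3 nM (3.45% against 0.14%), 1 at 10 nM (1.72% against 0.0234%) and 0 at 100 nM, where 10 had an unadjusted p below 0.05, against 2.56% of all genes, and DESeq2 called 0.

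ARL6IP1 at 6 h averaged 740 ± 357 CPM in DMSO, then 288 ± 46.8 CPM with 10 nM RBN-2397, 373 ± 124 CPM with 30 nM and 317 ± 28.8 CPM with 300 nM (SD, n = 3 each). With RBN012337 it averaged 273 ± 15.5 CPM at 3 nM, 368 ± 8.48 CPM at 10 nM and 442 ± 81 CPM at 100 nM. It was called lower with RBN-2397 at 10 nM (-1.36 ± 0.23, edgeR adjusted p = 0.00565) and 300 nM (-1.22 ± 0.23, 0.00912) and with RBN012337 at 3 nM (-1.44 ± 0.23, 0.0021) and 10 nM (-1.01 ± 0.23, 0.0478). The lowest mean was at the lowest dose of each compound, and the 100 nM mean was the highest of the treated groups. Doses were not tested against each other, and the RBN-2397 means were not in order of dose. NUSAP1 and HMGB2 were called with 300 nM RBN-2397 (-1.13 ± 0.28 and -0.97 ± 0.24, edgeR adjusted p = 0.0306 for both), and HMGB2 also with 3 nM RBN012337 (-1.03 ± 0.24, 0.0354). Without DMSO replicate 2 none of these calls passed (edgeR adjusted p 0.211 or more). ARL6IP1 then stood at -0.88, -0.76, -0.97 and -0.54 in the order given, NUSAP1 at -0.67, and HMGB2 at -0.83 and -0.88. Most of the calls were also lost without 1 of the treated libraries.

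**Figure D3:**
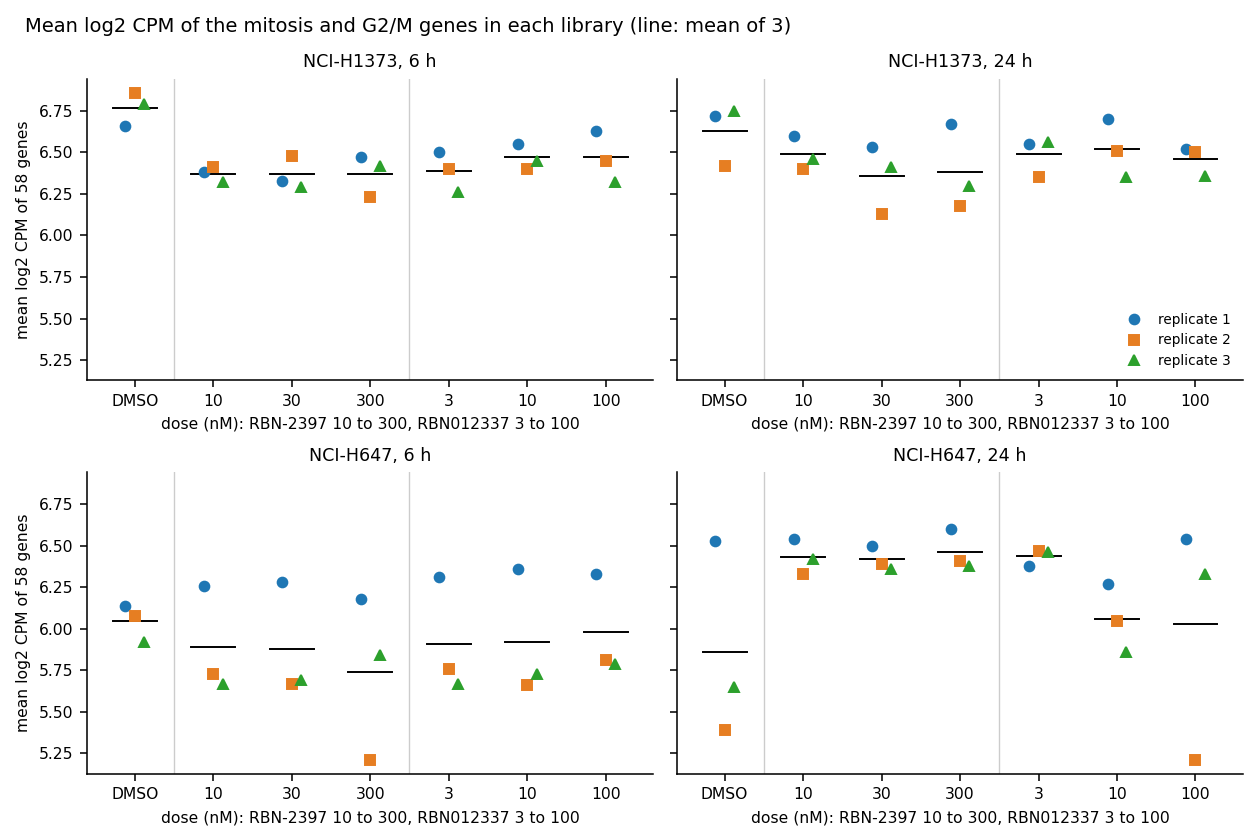
Score of each library (y axis, mean log2 CPM of the 58 members) by dose (x axis, DMSO, then RBN-2397 and RBN012337 in nM) for both lines and times, with markers for replicates 1 to 3 and lines at group means. NCI-H1373 at 6 h has DMSO libraries at 6.66 to 6.86 and all 18 treated libraries at 6.63 or below, while the DMSO libraries of NCI-H647 at 24 h spread from 5.39 to 6.53.

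At 24 h in NCI-H1373 the calls per dose were 3, 2 and 7 members lower with RBN-2397 at 10, 30 and 300 nM (5.17% against 3.07% of all genes called lower, 3.45% against 0.475%, and 12.1% against 5.05%). RBN012337 gave 3 at 3 nM (5.17% against 3.54%). At 10 and 100 nM it gave 0 by edgeR and 0 by DESeq2, against 0.818% and 0% of all genes. An unadjusted p below 0.05 was found for 6 members at 10 nM, against 16.9% of all genes, and 4 at 100 nM, against 5.68%. BUB1 averaged 70.2 ± 17.8 CPM in DMSO, then 36.6 ± 8.18, 35.8 ± 4.45 and 33.4 ± 12.4 CPM with RBN-2397 at 10, 30 and 300 nM. It was called lower at each of these doses (-0.95 ± 0.27, -0.98 ± 0.27 and -1.03 ± 0.27, edgeR adjusted p = 0.0283, 0.0445 and 0.0112). With RBN012337 BUB1 averaged 34.5 ± 1.34 CPM at 3 nM, where it was called (-1.03 ± 0.27, adjusted p = 0.0162), 51.9 ± 4.35 CPM at 10 nM and 53.6 ± 23.4 CPM at 100 nM. NEK2 was called lower with 10 nM RBN-2397 (-1.16 ± 0.32, adjusted p = 0.0232), 300 nM RBN-2397 (-1.01 ± 0.32, 0.0316) and 3 nM RBN012337 (-0.97 ± 0.31, 0.046). CKAP2 (-1.02 ± 0.29, 0.0197) and KIF4A (-0.84 ± 0.24, 0.0203) were called with 300 nM RBN-2397. Calls at single doses rested on few libraries. With 1 of the 6 libraries of a comparison left out in turn, the BUB1 call was lost in 3, 5 and 2 cases with RBN-2397 at 10, 30 and 300 nM, and in each of the 3 doses without DMSO replicate 1 (-0.80, -0.82 and -0.88, edgeR adjusted p = 0.187, 0.284 and 0.0941). The 3, 2 and 7 calls at these doses, and the 3 with 3 nM RBN012337, each dropped to 0 in at least 1 case.

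In NCI-H647 at 6 h, ARL6IP1 was the only member called. It had 112, 170 and 283 CPM in treated libraries, against 257, 559 and 254 CPM in DMSO, and 15 of 18 treated libraries lay below every DMSO library. It fell by 0.96 ± 0.17 on the log2 scale (edgeR adjusted p = 0.0087), to 0.512 of the DMSO level. That is 1.72% of the members, against 0.00676% of all 14789 genes called lower, which was this gene alone. The median over the 58 members was -0.11, against 0 for all genes, and 43 were negative. At an unadjusted p below 0.05 there were 7 members, against 8.8% of all genes. CKS2 had 197, 258 and 513 CPM in treated libraries and 336, 971 and 367 CPM in DMSO, but its difference of -0.87 ± 0.28 did not pass (adjusted p = 0.337).

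The spread within NCI-H647 at 6 h followed the replicate number. Treated libraries of replicate 1 had scores of 6.18 to 6.36, against 6.14 in DMSO replicate 1. Those of replicate 2 had 5.21 to 5.81, against 6.08 in DMSO, and those of replicate 3 had 5.67 to 5.84, against 5.92. On this scale all 6 treated libraries were above DMSO in replicate 1 and all 6 were below it in replicates 2 and 3. The direction in replicate 2 depended on the TMM scaling. With plain CPM, DMSO replicate 2 stood at 5.61, and most treated libraries of replicate 2 (4.92 to 5.74) lay above it. Treated libraries of replicate 1 then ran from 6.18 to 6.36, against 6.22, and those of replicate 3 from 5.67 to 5.83, against 5.87. DMSO replicate 2 was also the highest DMSO library for ARL6IP1, CKS2, PTTG1 and NUSAP1 in this line. Without it the edgeR fit called 0 members, with 1 at an unadjusted p below 0.05, and the difference of ARL6IP1 was -0.49 (adjusted p = 1). With only the libraries of this line and time in the fit, ARL6IP1 was not called either (-0.96, adjusted p = 0.217).

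After 24 h the members in NCI-H647 stood mostly above DMSO. The difference was positive for 53 of 58, with a median of 0.38, against -0.02 for all genes. The edgeR test called 2 members higher (3.45% against 2.26% of all genes) and 1 lower (1.72% against 2.72%), shares near those of all genes. At an unadjusted p below 0.05 there were 13 members, against 20% of all genes. CDC25B, the phosphatase that activates CDK1 at the centrosome, had 21.2, 81.9 and 107 CPM in treated libraries, against 64.8, 27.7 and 19.4 CPM in DMSO. It rose by 1.01 ± 0.30 (adjusted p = 0.0446), or 2.01-fold, with 14 of 18 treated libraries above every DMSO library. SPC24, a kinetochore subunit, had 5.98, 21.7 and 31.2 CPM in treated libraries and 17.7, 8.09 and 8.82 CPM in DMSO, and rose by 0.87 ± 0.27 (adjusted p = 0.047). Both calls were close to the threshold. With 1 of 21 libraries left out in turn, CDC25B lost its call in 19 cases (0.74 without DMSO replicate 3 to 1.68 without DMSO replicate 1, edgeR adjusted p 0.00167 to 0.299) and SPC24 in 17 (0.63 without DMSO replicate 2 to 1.36 without DMSO replicate 1, adjusted p 0.0053 to 0.315). ARL6IP1 had 158, 208 and 248 CPM in treated libraries, against 267, 301 and 433 CPM in DMSO, without overlap. It fell by 0.68 ± 0.17 (adjusted p = 0.0151), the opposite direction to most members, and was the only member without overlap (1.72% against 0.473% of all genes).

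The other members at 24 h in NCI-H647 did not pass in the fit without a replicate block. MKI67 had 84.7, 225 and 307 CPM in treated libraries, against 185, 94.6 and 78.2 CPM in DMSO (0.86 ± 0.32, edgeR adjusted p = 0.111). PLK1 stood at 0.67 ± 0.24 (adjusted p = 0.0915) and TPX2, which activates AURKA on the spindle, at 0.64 ± 0.20 (adjusted p = 0.0565). CDC20, AURKA, TOP2A, FOXM1, CCNB1 and CDK1 stood between 0.27 and 0.55, and NUSAP1 at 0.09 ± 0.25.

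**Figure D4:**
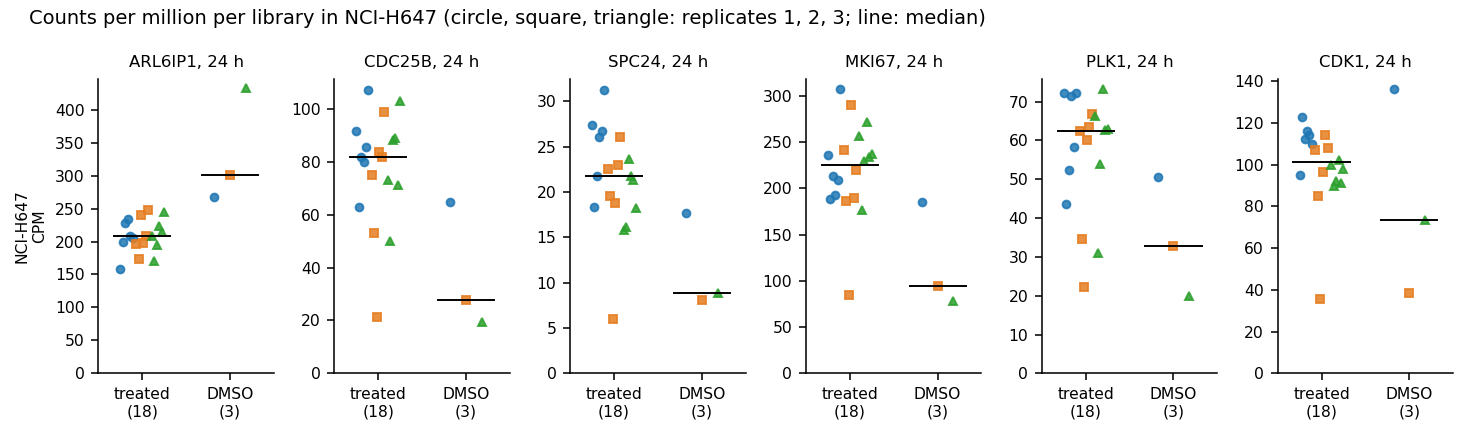
CPM (y axis) of 6 members in each NCI-H647 library at 24 h, with 18 treated libraries left of 3 DMSO libraries, lines at medians, and circles, squares and triangles for replicates 1, 2 and 3. ARL6IP1 is lower in all 18 treated libraries (158 to 248 CPM) than in DMSO (267 to 433 CPM), and for CDC25B, SPC24, MKI67, PLK1 and CDK1 DMSO replicate 1 is the highest DMSO library.

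These values rest on DMSO libraries that differ widely from each other. DMSO replicate 1 was the highest of the 3 for 54 of 58 members, with a score of 6.53, against 5.39 and 5.65 in replicates 2 and 3. Among treated libraries the score ran from 5.21 to 6.60, and the lowest was RBN012337 100 nM replicate 2. Without DMSO replicate 1 the edgeR fit called 22 members higher, against 5.88% of all genes, and 1 lower. Without DMSO replicate 2 it called 0 members, against 0.747% of all genes, with 3 at an unadjusted p below 0.05, against 16%. Without replicate 3 it also called 0, against 1.39%, with 3 at an unadjusted p below 0.05, against 14.6%. The median difference ran from 0.18 to 0.83 over the 21 libraries left out in turn. Without RBN012337 100 nM replicate 2 the fit called 5 higher and 1 lower. Set against the DMSO library of the same number, the treated mean score differed by -0.06 in replicate 1, 0.75 in replicate 2 and 0.65 in replicate 3.

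By dose, the score at 24 h in NCI-H647 averaged 5.86 ± 0.60 in DMSO, then 6.43 ± 0.11, 6.42 ± 0.07 and 6.46 ± 0.12 with RBN-2397 at 10, 30 and 300 nM (SD, n = 3 each). With RBN012337 it averaged 6.44 ± 0.05 at 3 nM, 6.06 ± 0.21 at 10 nM and 6.03 ± 0.72 at 100 nM. The edgeR test called 2 members, CDC25B (1.44 ± 0.37, adjusted p = 0.0238) and SPC24 (1.12 ± 0.32, adjusted p = 0.0425), with 300 nM RBN-2397, 3.45% against 2.22% of all genes called higher. The other 5 treatments gave 0 calls by edgeR, against 1.8% and 0.94% of all genes with 10 and 30 nM RBN-2397 and 0.676%, 0.176% and 0.101% with 3, 10 and 100 nM RBN012337, and DESeq2 called 0 to 3 members. An unadjusted p below 0.05 was found for 13 and 10 members with 10 and 30 nM RBN-2397, against 16.4% and 14.3% of all genes. With 3, 10 and 100 nM RBN012337 it was found for 14, 1 and 2, against 15%, 7.89% and 5.83%. At 6 h the 6 treatments gave 0 calls by edgeR, against 0% to 0.00676% of all genes, and 0 to 2 by DESeq2. An unadjusted p below 0.05 was then found for 4, 4 and 7 members with 10, 30 and 300 nM RBN-2397, against 7.39%, 4.29% and 12.4% of all genes. With 3, 10 and 100 nM RBN012337 it was found for 3, 3 and 1, against 5.2%, 3.21% and 2.46%. CDC25B at 24 h averaged 37.3 ± 24.2 CPM in DMSO, then 84.3 ± 4.67, 79.5 ± 7.36 and 103 ± 4.02 CPM with RBN-2397 at 10, 30 and 300 nM (SD, n = 3 each).

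ARL6IP1 was thus the member called lower in each line at each time. The differences were -1.13 and -0.75 in NCI-H1373 and -0.96 and -0.68 in NCI-H647, at 6 and 24 h. At 6 h it did not pass without DMSO replicate 2 in NCI-H1373 (-0.66, edgeR adjusted p = 0.303) or NCI-H647 (-0.49, adjusted p = 1). At 24 h in NCI-H1373 it passed whichever library was left out (adjusted p 0.00236 to 0.036). At 24 h in NCI-H647 it did not pass without DMSO replicate 2 (-0.73, adjusted p = 0.0635) or replicate 3 (-0.44, 0.295).

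Whether the response differed between times or lines was tested directly. The difference of the pooled responses, 24 h minus 6 h, gave 0 called members in either line by edgeR (against 0.53% of all genes in NCI-H1373 and 0% in NCI-H647) and 0 by DESeq2, with 5 of 58 members in each line at an unadjusted p below 0.05, against 13.9% of all genes in NCI-H1373 and 6.05% in NCI-H647. In NCI-H1373 the member with the smallest p was HMMR (0.74 ± 0.27, edgeR adjusted p = 0.186), and the median was 0.17. In NCI-H647 it was SPC24 (0.98 ± 0.36, adjusted p = 0.682), and all 58 differences were positive, with a median of 0.52 against 0 for all genes. Between lines, NCI-H1373 minus NCI-H647, the edgeR and DESeq2 fits called 0 members at 6 h, against 0% of all genes by edgeR, and 0 at 24 h, against 0.47%. An unadjusted p below 0.05 was found for 3 at 6 h, against 3.67% of all genes, and for 14 at 24 h, against 8.83%. CDC25C had the smallest p at 6 h (-1 ± 0.40, edgeR adjusted p = 1) and KIF4A at 24 h (-0.90 ± 0.28, adjusted p = 0.149). At 24 h all 58 differences were negative, with a median of -0.55 against 0.01 for all genes. Both counts of 58 use the NCI-H647 DMSO libraries at 24 h, with scores of 6.53, 5.39 and 5.65. Against replicate 1 of these the treated mean score differed by -0.06. Members also vary together in that line (median correlation 0.81), so neither count holds 58 separate observations. With 0 members called, a member called in a line or at a time alone is not shown to differ between them.

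RBN-2397 and RBN012337 share only the dose of 10 nM, so 4 pairs of groups could be compared, with p-values adjusted over all genes within each pair. This dose is the lowest of RBN-2397 but the middle one of RBN012337. The pairs thus match in nM but not in place between IC25 and IC90. The edgeR fit and DESeq2 called 0 members in each, against 0% of all genes by edgeR. Unadjusted p-values were below 0.05 for 0 members in NCI-H1373 at 6 h and at 24 h, 1 in NCI-H647 at 6 h and 8 at 24 h, against 1.19%, 1.95%, 2.45% and 3.08% of all genes. In NCI-H647 at 24 h 56 of 58 members were higher with RBN-2397 than with RBN012337, with a median of 0.33 against 0 for all genes. Members vary together in that line (median correlation 0.81), so this count does not hold 58 separate observations. The medians of the members were -0.08 and -0.05 in NCI-H1373 at 6 and 24 h and -0.04 in NCI-H647 at 6 h. The smallest p values belonged to NEK2 in NCI-H1373 at 6 h (24.9 ± 7.66 CPM with RBN-2397 and 36.1 ± 1.06 CPM with RBN012337, log2 difference -0.52, normal 95% interval -1.13 to 0.09). In NCI-H1373 at 24 h it was BUB1 (36.6 ± 8.18 CPM with RBN-2397 and 51.9 ± 4.35 CPM with RBN012337, -0.53, interval -1.06 to 0.01). In NCI-H647 at 6 h it was ARL6IP1 (151 ± 13.9 CPM with RBN-2397 and 233 ± 40.3 CPM with RBN012337, -0.63, interval -1.10 to -0.16), and at 24 h PLK1 (68.3 ± 7.07 CPM with RBN-2397 and 36.4 ± 6.48 CPM with RBN012337, 0.90, interval 0.33 to 1.48). Each has an adjusted p of 1 by edgeR. The intervals of these 4 members pass a 2-fold difference. Over all 58 members, 2 standard errors either side of the difference stayed within 2-fold for 53 in NCI-H1373 at 6 h, 53 at 24 h, 44 in NCI-H647 at 6 h and 26 at 24 h. The missing calls do not show that the compounds act alike. At 300 nM RBN-2397 and 100 nM RBN012337, the top dose of each compound, the doses in nM differ and no test was made. The scores there in NCI-H1373 were 6.37 ± 0.13 and 6.47 ± 0.16 at 6 h, and 6.38 ± 0.26 and 6.46 ± 0.09 at 24 h.

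Without inhibitor the members stood higher in NCI-H1373 than in NCI-H647. In a fit of all 84 libraries the edgeR test called 35 members higher and 1 lower in NCI-H1373 (60.3% against 21.4% of all genes called higher, and 1.72% against 23.9% called lower), with a median log2 difference of 0.74 against -0.03 for all genes. For 15 members all 6 NCI-H1373 DMSO libraries lay above all 6 of NCI-H647, against 6.45% of all genes. CPM in this comparison are scaled over both lines and differ slightly from the values given within a line. BIRC5 had 411, 512 and 635 CPM (lowest, median, highest of 6) in NCI-H1373, against 47.4, 98.6 and 137 CPM in NCI-H647, a 5.73-fold difference (2.52 ± 0.18, edgeR adjusted p = 4.63e-20). ECT2, which starts cytokinesis by activating RhoA, had 109, 154 and 185 CPM in NCI-H1373, against 14.7, 22.7 and 29.7 CPM in NCI-H647 (2.74 ± 0.20, adjusted p = 2.11e-19). The ranges of both genes are far apart.

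HMGB2 (1.51 ± 0.19), CDCA8, a chromosomal passenger subunit (1.58 ± 0.20), MKI67 (1.78 ± 0.23) and CCNB1 (1.30 ± 0.17) were also higher in NCI-H1373. CCNB1 had 415 to 606 CPM in NCI-H1373 and 139 to 310 CPM in NCI-H647. The member called lower was SPC25, with 21, 32.2 and 62.5 CPM in NCI-H1373 and 38.8, 54.4 and 93.7 CPM in NCI-H647 (-0.76 ± 0.21, edgeR adjusted p = 0.00252). CDK1 (0.54 ± 0.25, adjusted p = 0.0651), FOXM1 (0.37 ± 0.18, 0.0788), PLK1 (0.37 ± 0.21, 0.145) and CDC20 (0.42 ± 0.25, 0.164) were not called, and their ranges overlapped. Of 13 mitochondrially encoded transcripts, 11 were also higher in NCI-H1373, with a median of 1.18, and the part of such differences between the lines in these values was not tested.

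**Figure D5:**
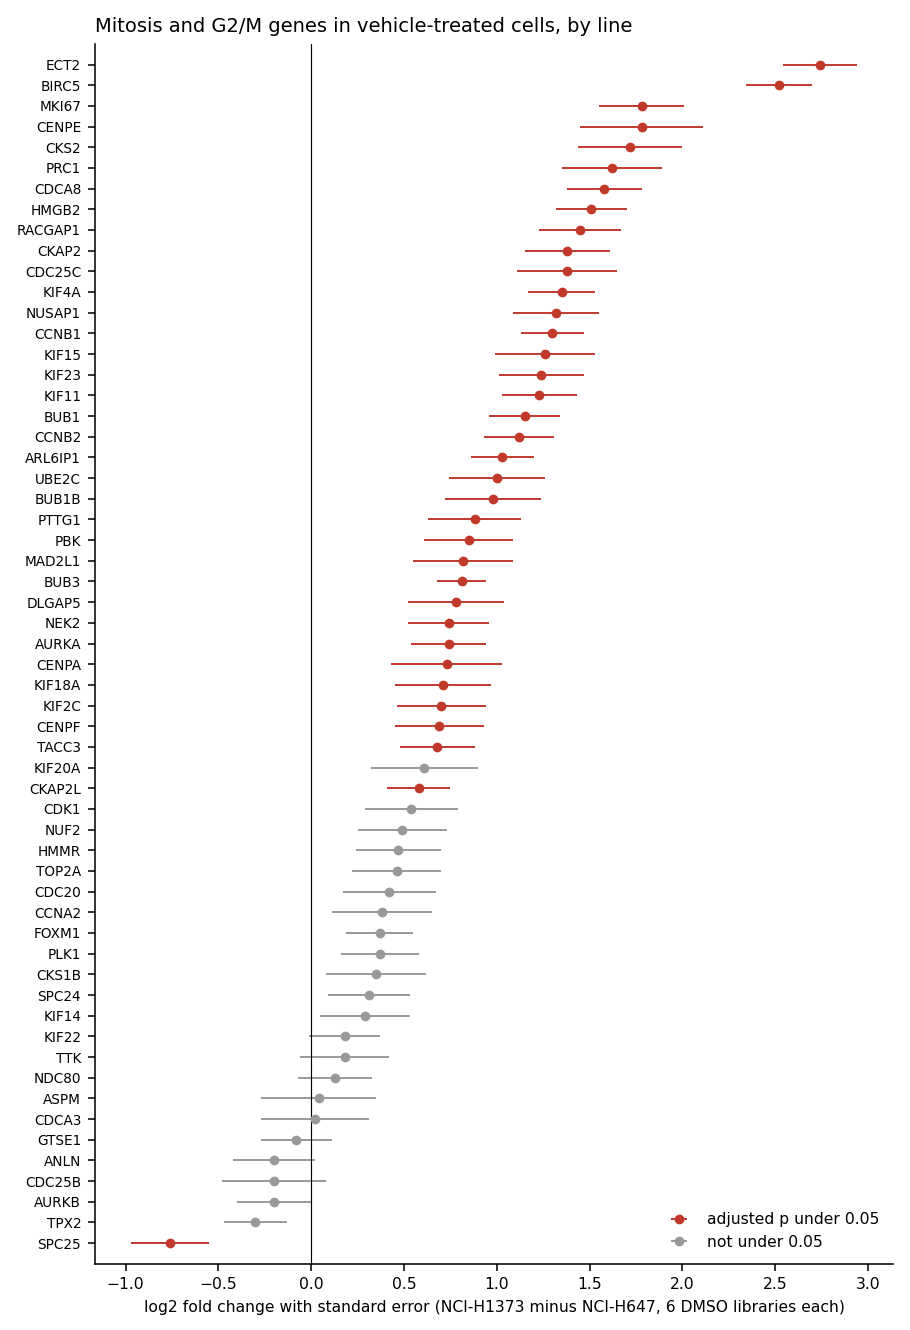
Log2 fold change of each member in DMSO libraries (x axis, NCI-H1373 minus NCI-H647, 6 libraries each, bars 1 standard error), with red points for an adjusted p below 0.05. ECT2 (2.74) and BIRC5 (2.52) stand farthest to the right, and SPC25 (-0.76) is the red point below 0.

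DMSO itself was compared at 24 h and 6 h. The edgeR and DESeq2 fits called 0 members in either line (against 9.12% of all genes in NCI-H1373 and 0.284% in NCI-H647 by edgeR), with 7 members in NCI-H1373 and 1 in NCI-H647 at an unadjusted p below 0.05, against 23.7% and 11.5% of all genes. In NCI-H1373 the smallest p values were those of CCNA2, cyclin A2 (-0.61 ± 0.22, edgeR adjusted p = 0.0684), GTSE1, a microtubule-associated regulator of p53 (0.67 ± 0.24, 0.0765), and NUSAP1 (-0.74 ± 0.28, 0.0895). The NUSAP1 levels were 199, 161 and 333 CPM at 24 h and 299, 597 and 254 CPM at 6 h, with overlap. In NCI-H647 the smallest belonged to BIRC5 (-0.59 ± 0.28, edgeR adjusted p = 0.419), SPC24 (-0.54 ± 0.33, 0.575) and PLK1 (-0.46 ± 0.30, 0.593).

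The members varied together more closely in NCI-H647 than in NCI-H1373. Over the 42 libraries of NCI-H1373, the correlation of a member's log2 CPM with the score of the other members had a median of 0.50, and 5 members were below 0. Over the 42 libraries of NCI-H647 the median was 0.81, and 33 members were above 0.8. These libraries share groups and differ in depth, so the values describe the libraries and carry no p-value. The scores also spread more widely in NCI-H647 (SD of treated libraries 0.32 at 6 h and 0.33 at 24 h, against 0.10 and 0.15 in NCI-H1373). The part of that spread in the higher correlations was not tested. In NCI-H1373, HMGB2 (0.78), NUSAP1 (0.74) and CDK1 (0.72) followed the score most closely, and CDC25B (-0.62) and PLK1 (-0.24) went against it. In NCI-H647, TOP2A (0.94), DLGAP5 (0.91) and HMMR (0.91) led and ARL6IP1 was last (0.15).

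Outside the members, the genes with the highest correlation with the score over 42 libraries in NCI-H1373 were DEPDC1 (0.82), ASF1A (0.79), SEPT7 (0.75), FUNDC1 (0.74) and HMGB3 (0.72). In NCI-H647 they were NCAPG (0.92), STMN1 (0.91), MND1 (0.91), PCLAF (0.89) and CCDC34 (0.89). DEPDC1 and NCAPG are on the list of other mitotic genes described next. NCAPG encodes a condensin subunit, and STMN1 encodes stathmin, which takes up tubulin dimers. The 2 lines share none of these genes among their 5.

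Other mitotic genes (a list of 79) were also mostly negative at 6 h in NCI-H1373, where 61 of 78 tested were negative, with a median of -0.26. The edgeR test called 2 of them lower, HJURP, the chaperone of centromeric histone (-0.75 ± 0.16, adjusted p = 0.0166), and CDCA2 (-0.74 ± 0.18, 0.033), 2.56% against 0.592% of all genes. At 24 h 6 were called lower (7.69% against 6.02%) and 4 higher (5.13% against 6.13%). The lower ones include KNL1, a kinetochore scaffold (-0.94 ± 0.22, edgeR adjusted p = 0.00426), CENPN (-0.70 ± 0.17, 0.00619), PIMREG (-1.12 ± 0.30, 0.0127) and SGO2 (-0.59 ± 0.16, 0.0133). The higher ones were DSN1, a kinetochore subunit (1.04 ± 0.21, 0.00116), PKMYT1, an inhibitory kinase of CDK1 (1.38 ± 0.35, 0.00826), MIS18A (0.59 ± 0.19, 0.0317) and TRIP13 (0.63 ± 0.21, 0.0382). In NCI-H647 at 24 h 71 of 79 were positive, with a median of 0.37, and PKMYT1 was called higher (1.35 ± 0.37, 0.0274, 1.27% against 2.26%). Without DMSO replicate 2 at 6 h, HJURP (-0.63, edgeR adjusted p = 0.408) and CDCA2 (-0.67, 0.482) were not called. Of the 8 genes named at 24 h in NCI-H1373, 7 lost their call without DMSO replicate 1, and DSN1 passed whichever library was left out. PKMYT1 in NCI-H647 was not called without DMSO replicate 2 (1.05, 0.224) or 3 (1.05, 0.185).

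Genes of G1 and S phase changed in both directions at 24 h in NCI-H1373, with 4 of 25 tested genes called higher (16% against 6.13% of all genes) and 4 lower (16% against 6.02%, edgeR). CDK4, a G1 kinase (1.01 ± 0.22, adjusted p = 0.00232), CDC25A (2.04 ± 0.48, 0.00441), E2F1, a transcription factor of S-phase genes (1.70 ± 0.50, 0.0215), and CDKN2A (1.34 ± 0.41, 0.0317) rose. The inhibitors CDKN1C (-1.66 ± 0.39, 0.00459) and CDKN1A, which encodes p21 (-1.80 ± 0.47, 0.0114), fell with E2F3 and CDKN3. At 6 h 1 gene of the list was called lower, CCNE2, cyclin E2 (-1.58 ± 0.35, 0.0238, 4% against 0.592%). In NCI-H647 at 24 h CCND1, cyclin D1 (0.64 ± 0.18, 0.0267), and CCNE1, cyclin E1 (0.88 ± 0.25, 0.0337), rose (8.33% against 2.26% of all genes). These calls also rested on single DMSO libraries. Without DMSO replicate 1, 7 of the 8 genes named in NCI-H1373 at 24 h lost their call, among them E2F1 (0.79, edgeR adjusted p = 0.459), which stood at 3.27 without replicate 2, and CDKN2A (0.94, 0.32). E2F3 lost it without replicate 3 (-0.47, 0.147), and CDKN3 in 14 of 21 cases. CCNE2 at 6 h was not called without DMSO replicate 2 (-0.88, 0.896). CCND1 and CCNE1 in NCI-H647 were not called without DMSO replicate 2 (0.66 and 0.86, 0.104 and 0.15) or 3 (0.51 and 0.57, 0.197 and 0.273).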

How the data were processed

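Salmon 0.11.27 and the build hg38 are named in the submitters' processing notes, and libraries measured 3' digital gene expression per the labels' protocols. The authors deposited 1 table of estimated counts (49.4% of nonzero values not whole), which were rounded here. How strand and molecular identifiers were handled, and with which annotation, is not given in the sources used here, and intervals cover the spread of the fit only. Symbols came from GENCODE 29 for 57845 of 57964 IDs. Genes were filtered with filterByExpr, scaled by TMM and tested with edgeR 4.0.16 (R 4.3.3, robust quasi-likelihood) in 1 fit of 42 libraries per line, or of all 84 between lines, with Benjamini-Hochberg adjustment over all tested genes. DESeq2 1.42.0 was an alternative. The pooled response is the mean of 6 treated groups minus DMSO, standard errors follow from the F statistic, and log2 CPM used a prior count of 2. The fits were tested on simulated counts with the same spread for every gene and no effect of replicate number or of a deviating library. That test does not cover the dependence on single DMSO libraries. The members and lists were chosen with earlier results of these data known. Named genes are a fixed set of 9, then up to 6 called members each way per comparison, or those with the smallest p. Other members named were chosen after their values were seen.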

Additional observations from a re-analysis of the deposited data

How the results depend on the processing

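The count of called members depended on single libraries and on the fit. Leaving out libraries in turn gave 0 to 18 calls in NCI-H1373 at 6 h (10 with all libraries), 1 to 9 at 24 h (8), 0 to 2 in NCI-H647 at 6 h (1) and 0 to 23 at 24 h (3). The median difference ran from -0.46 to -0.31, -0.37 to -0.12, -0.17 to -0.08 and 0.18 to 0.83, in that order of lines and times. Calls ran from 0 to 8 and 0 to 2 for DMSO at 24 h minus 6 h in NCI-H1373 and NCI-H647, 0 to 2 for the 24 h minus 6 h response in NCI-H1373, 0 to 4 for the response between lines at 24 h, and 31 to 44 for DMSO between lines. Treated libraries were not left out in comparisons between lines. With replicate number as a block, the calls were 21 in NCI-H1373 at 6 h, 11 in NCI-H647 at 24 h, 7 for DMSO over time in NCI-H1373 and 5 between lines at 24 h. Genes named by the rule above that passed with the block but not in the fit reported were CDK1 (-0.66, edgeR adjusted p = 0.00604) and AURKA (-0.47, 0.0468) in NCI-H1373 at 6 h, PLK1 (0.68, 0.0257) and MKI67 (0.88, 0.0191) in NCI-H647 at 24 h, CCNA2 (-0.63, 0.0176) and GTSE1 (0.70, 0.0303) for DMSO over time in NCI-H1373, and KIF4A between lines at 24 h (-0.90, 0.0302). Without the low-count filter the calls were 1 for DMSO over time in NCI-H1373, 2 in NCI-H647 at 6 h, 12 in NCI-H647 at 24 h, 2 for the 24 h minus 6 h response in NCI-H647 and 2 between lines at 24 h. DESeq2 called 5 in NCI-H647 at 24 h, MKI67 and TPX2 among them. With only 1 line and time in the fit, the calls were 5 in NCI-H1373 at 6 h and 0 in NCI-H647 at 6 h. Single doses in NCI-H1373 at 6 h had 0 calls each with only that line and time in the fit, 0 to 10 with DESeq2 and 0 to 20 with the block, against 0 to 5 in the fit reported. Without TMM scaling, the score of treated libraries minus DMSO was -0.24 in NCI-H1373 and -0.03 in NCI-H647 at 6 h, against -0.37 and -0.16 with it. In the 250 bases before the start alone, 51.7% of member windows held CHR letters, against 14.3% of all windows. Over the full windows it was 66.7% against 16.4%. The cause of these shifts was not tested.

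Values near 0 changed sign. At 6 h in NCI-H1373, CDC20 was -0.01 with RLE scaling and DESeq2 and 0 with the block, and FOXM1 was -0.01 and -0.02 with RLE and DESeq2. CDC20 at 24 h was 0.01 without the filter. With libraries left out, ranges that crossed 0 in NCI-H1373 at 6 h were -0.06 to 0.41 for PLK1, -0.09 to 0.18 for CDC20, -0.34 to 0.03 for MKI67 and -0.17 to 0.32 for FOXM1. At 24 h they were -0.40 to 0.09 for CDK1, -0.17 to 0.01 for AURKA, -0.17 to 0.12 for CDC20, -0.40 to 0.20 for TOP2A, -0.12 to 0.20 for MKI67, -0.32 to 0.03 for FOXM1 and -0.44 to 0.11 for NUSAP1. In NCI-H647 they were -0.11 to 0.01 for CCNB1, -0.04 to 0.59 for PLK1 and -0.04 to 0.64 for MKI67 at 6 h, and -0.08 to 0.88 for CDK1 and -0.15 to 0.36 for NUSAP1 at 24 h. Libraries of the same number correlated in their deviations with medians of 0.27 and 0.17 in NCI-H1373 and 0.13 and 0.15 in NCI-H647 at 6 and 24 h, and with other numbers of -0.17, -0.11, -0.07 and -0.07. Of 63 pairs, 58, 47, 41 and 41 were over 0.1, and 20, 21, 20 and 20 of 21 libraries correlated best with their own number. That is a hint from the data that the numbers pair the libraries, which the labels do not say. A block was to be used only where every pair was over 0.1. The lowest pairs were between -0.05 and 0.03, so by that rule the fit without the block is the one reported. A few low pairs among 63 do not show that the numbers are unpaired, and the calls with the block are given above.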
